A study of Mus musculus with 18 samples.

Results

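Chemokine receptors were followed through neutrophil differentiation in mouse bone marrow. The 7 members, Cxcr2, Cxcr1, Cxcr4, Ccr1, Ccr2, Cx3cr1 and Ccrl2, were taken by symbol from the 34896 genes of the expression table. RNA-seq covered granulocyte-monocyte progenitors (GMPs, sorted as lin- cKIT+ SCA1- CD16/32+ CD34+), pre-neutrophils (preNeu, Mac-1+ Gr-1+ cells gated as cKIT high and CXCR4 intermediate) and mature neutrophils (matNeu, Mac-1+ Gr-1+ Siglec-F- CXCR2+), with 3 libraries of each. All were wild-type (WT) C57BL/6 mice of 6 to 12 weeks, and marrow from the long bones was pooled before sorting. ChIP-seq peak lists came from 1 library each: CHD4 in WT and in Gfi1-/- GMPs, and H3K4me2 in WT GMPs, preNeu and matNeu cells. The Gfi1-/- mice carry a knockout of the transcription factor GFI1, the CHD4 and H3K4me2 libraries have no replicate, and no RNA-seq of Gfi1-/- cells was analysed here.

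Chemokine receptors are G protein-coupled receptors that turn a gradient of small secreted proteins into directed movement. In the marrow, CXCR4 holds myeloid cells near stromal cells that secrete CXCL12, and CXCR2, the receptor of CXCL1 and CXCL2, draws mature neutrophils into blood. CCR1, CCR2 and CX3CR1 serve inflammatory recruitment of myeloid cells, and CCRL2 binds chemerin without classical signalling. CHD4 is the ATPase of the NuRD chromatin remodelling complex, which GFI1 can recruit, and H3K4me2 is a histone mark of promoters and enhancers.

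Surface CXCR4 and CXCR2 were used for sorting preNeu and matNeu cells, though not GMPs. The RNA levels of Cxcr4 and Cxcr2 are therefore given as descriptions without a test. Every other difference involves preNeu or matNeu cells, which were chosen on those proteins. For 13 of the 18 samples, all 9 RNA-seq libraries included, the title and the cell type field of the labels named different cells. Titles were followed. Summed markers of GMPs such as Mpo and Elane lay between 45270 and 47150 TPM (reads scaled by transcript length and to a common total) in the libraries titled GMP, at 8320 to 9360 in those titled preNeu and at 9.32 to 32.7 in those titled matNeu. Markers of preNeu cells such as Ltf and Camp were highest in preNeu (146500 to 172200 TPM) and those of matNeu cells such as Mmp8 and Retnlg in matNeu (31890 to 36100 TPM), so the markers went with the titles. Between 10754 and 12256 genes reached 1 TPM per library, libraries of 1 group correlated at r of at least 0.961, and the depth behind the values is unknown.

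Cxcr2 spanned the widest range of levels of the 7. Cxcr2 (chr1:74153989-74161246, plus strand, GRCm38) stood at 8.17, 7.65 and 11.9 TPM in GMPs, at 64.7, 93.4 and 70.9 TPM in preNeu and at 3027, 3400 and 3976 TPM in matNeu. No group overlapped another. The means were 9.23 ± 2.3 (SD, n = 3), 76.4 ± 15.1 and 3468 ± 478 TPM, which is an 8.27-fold step from GMP to preNeu and a 45.4-fold step from preNeu to matNeu. Among the 13061 genes that reached 1 TPM in at least 3 libraries, Cxcr2 ranked 8598 in GMPs by mean TPM, 2041 in preNeu and 31 in matNeu.

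Cxcr1, the second receptor of CXC ligands on neutrophils, lies 30.5 kb from Cxcr2 (chr1:74191785-74194631, minus strand). It was listed at 0 in all 6 GMP and preNeu libraries and at 38.4, 42.9 and 39.3 TPM in matNeu. It passed the filter on low values solely through the matNeu libraries, so it had to differ and its change supports nothing further. The level of Cxcr1 in matNeu was far under that of its neighbour.

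**Figure D1:**
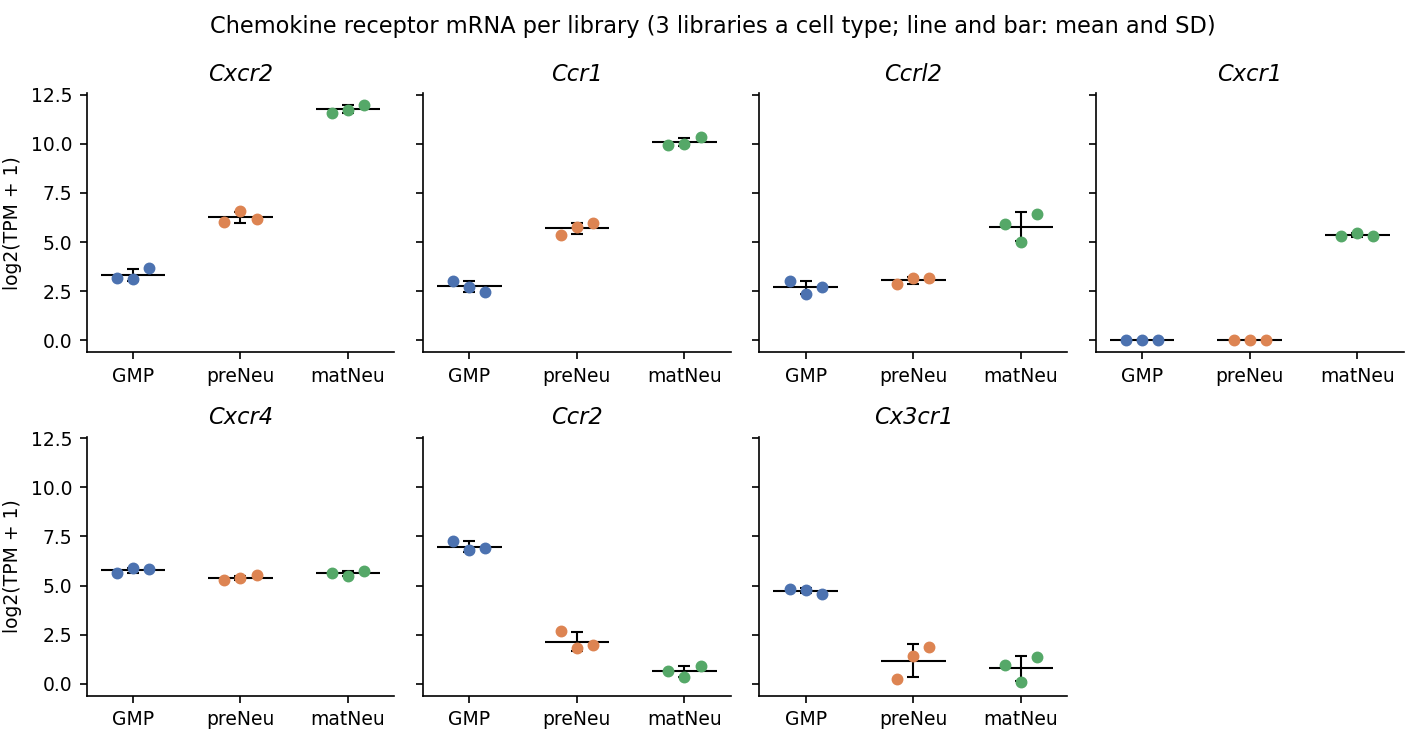
TPM of the 7 receptors in each library (points, 3 per cell type, log axis of TPM + 1) with group means as bars. Cxcr2 and Ccr1 climb at both steps, Ccr2 and Cx3cr1 are highest in GMPs, and Cxcr4 stays between 38.6 and 58.7 TPM.

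Cxcr4, the retention receptor (chr1:128588199-128592293, minus strand), kept within a narrow range. It stood at 49.2, 58.7 and 55.7 TPM in GMPs, 38.6, 40.4 and 44.7 TPM in preNeu, and 48.1, 43.2 and 53.3 TPM in matNeu. GMP and preNeu libraries did not overlap, while matNeu libraries overlapped both. On the log2(TPM + 1) scale the differences were -0.39 for preNeu against GMP and -0.18 for matNeu against GMP (95% interval -0.50 to 0.14), but under median-of-ratios scaling they were 0.11 and 0.69, so no direction can be given. The Cxcr2 to Cxcr4 ratio, which no scaling of a library changes, ran from 0.130 to 0.213 across GMP libraries, from 1.59 to 2.31 across preNeu libraries and from 62.9 to 78.8 across matNeu libraries, with no overlap between cell types.

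Ccr1, a receptor of inflammatory CC chemokines, rose at both steps. Ccr1 (chr9:123962124-123968692, minus strand) had 7.24, 5.49 and 4.59 TPM in GMPs, 40.6, 53.8 and 60.7 TPM in preNeu, and 968, 1023 and 1283 TPM in matNeu, with no overlap between groups. It was higher by 2.96 (log2, SE 0.20) in preNeu than in GMPs (limma adjusted p = 9.46e-07) and by 4.38 in matNeu than in preNeu (limma adjusted p = 1.81e-08). The neighbouring Ccr1l1 is a similar gene, and how reads shared by such pairs were assigned is not given in the sources used here.

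Ccr2, the monocyte receptor for CCL2, ran the other way. Ccr2 (chr9:124101950-124113557, plus strand) lies 133.3 kb from Ccr1. It had 154, 110 and 118 TPM in GMPs, 5.41, 2.52 and 2.90 TPM in preNeu, and 0.558, 0.269 and 0.891 TPM in matNeu. The groups did not overlap. Ccr2 was lower in preNeu than in GMPs by a log2 difference of -4.83 (SE 0.29, limma adjusted p = 4.48e-07) and lower again in matNeu, by -1.52 (limma adjusted p = 0.000856).

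Cx3cr1, the fractalkine receptor of monocytes and macrophages (chr9:119901616-120069879, minus strand), fell at the first step. It had 27.8, 26.5 and 23.2 TPM in GMPs, 0.193, 1.64 and 2.71 TPM in preNeu, and 0.934, 0.0676 and 1.56 TPM in matNeu. PreNeu and matNeu libraries overlapped, and both lay under every GMP library. The log2 difference was -3.56 (SE 0.44) for preNeu against GMP (limma adjusted p = 5.79e-05) and -0.38 for matNeu against preNeu, which did not pass the test (95% interval -1.36 to 0.59, limma adjusted p = 0.475).

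Markers of monocytes were lower beside these 2 receptors at the first step and mixed at the second. All 9 of the 9 tested monocyte markers (of 10 listed) were lower in preNeu than in GMPs, 3 were higher and 1 lower in matNeu than in preNeu, and 5 were lower and 2 higher in matNeu than in GMPs. Their summed level ranged over 1978 to 2399 TPM among GMP libraries, 99.97 to 150.4 among preNeu libraries and 676 to 950.4 among matNeu libraries. Irf8, a regulator of monocyte fate, averaged 513, 12.5 and 11.2 TPM in the 3 cell types. F13a1 averaged 906, 13.3 and 3.06 TPM. Csf1r, the receptor of the monocyte growth factor, averaged 204, 13.8 and 304 TPM, Mpeg1 79.2, 45.02 and 359 TPM, and Ctss 78.8, 28.2 and 114 TPM, so these 3 were higher in matNeu than in preNeu, where Ccr2 was lower. Cd300e did not pass the filter and reached 1.13 TPM at most. The part of monocyte-primed cells in the levels of Ccr2 and Cx3cr1 was not tested, and in bulk samples fewer cells of a type and less RNA per cell cannot be told apart.

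Ccrl2, which presents chemerin rather than signalling itself (chr9:111054486-111057519, minus strand), rose late. It had 7.13, 4.17 and 5.58 TPM in GMPs, 6.28, 8.06 and 7.89 TPM in preNeu, and 58.8, 30.7 and 85.4 TPM in matNeu. GMP and preNeu libraries overlapped (log2 difference 0.36, 95% interval -0.39 to 1.12, limma adjusted p = 0.389), and all 3 matNeu libraries lay above both. Ccrl2 was higher in matNeu than in preNeu by 2.71 (limma adjusted p = 4.13e-05), and its matNeu libraries were spread over 30.7 to 85.4 TPM.

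**Figure D2:**
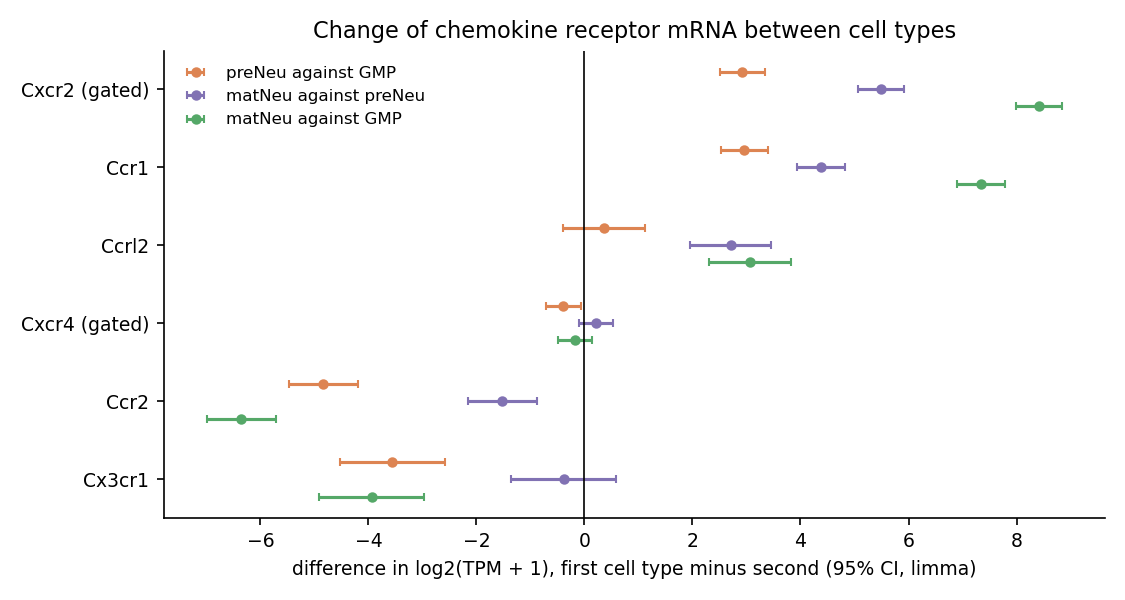
Differences in log2(TPM + 1) for the members other than Cxcr1, with 95% intervals from limma, for preNeu against GMP, matNeu against preNeu and matNeu against GMP. Cxcr2 and Cxcr4 are shown as descriptions since their proteins were sorted on; Ccr1 lies above 0 in each comparison and Ccr2 below.

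Counted without Cxcr2, Cxcr4 and Cxcr1, 1 of 4 members was higher in preNeu than in GMPs (Ccr1), where 14.7% of all tested genes were, and 2 of 4 were lower (Ccr2, Cx3cr1), where 44.3% were. In matNeu against preNeu 2 were higher (Ccr1, Ccrl2; background 22.9%) and 1 was lower (Ccr2; 39.8%). In matNeu against GMP 2 were higher (Ccr1, Ccrl2; 22.8%) and 2 lower (Ccr2, Cx3cr1; 54.1%), and most tested genes were called in 1 direction or the other. The backgrounds are over all tested genes, those that passed the filter through 1 cell type included. The comparisons share their libraries. The median tested gene changed by -0.52, -0.32 and -0.92 in the 3 comparisons, and higher calls made up 25%, 36.5% and 29.6% of all calls, against 45.7%, 47.6% and 46.0% under median-of-ratios scaling. All of the members' calls held their direction there. Nothing in the labels shows whether libraries of a group came from separate mice, so p-values measure the spread between libraries.

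Within a library the order of the receptors was reset. In GMPs Ccr2 led, followed by Cxcr4 and Cx3cr1 with no overlap between them, then Cxcr2, and then Ccr1 and Ccrl2, which overlapped, with Cxcr1 at 0. In preNeu cells Cxcr2 led, Ccr1 and Cxcr4 overlapped behind it, and Ccrl2 stood above Ccr2 and Cx3cr1, which overlapped. In matNeu cells Cxcr2 led, then Ccr1, then Ccrl2, Cxcr4 and Cxcr1, the libraries of Ccrl2 overlapping those of both others, and last Ccr2 and Cx3cr1, which overlapped. Of the 7 receptors' summed TPM, Cxcr2 made up 3.22% to 5.43% across GMP libraries, 37.4% to 46.7% across preNeu and 73.1% to 74.9% across matNeu libraries. Ccr2 made up 51.7% to 60.7% in GMPs and at most 0.0164% in matNeu.

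**Figure D3:**
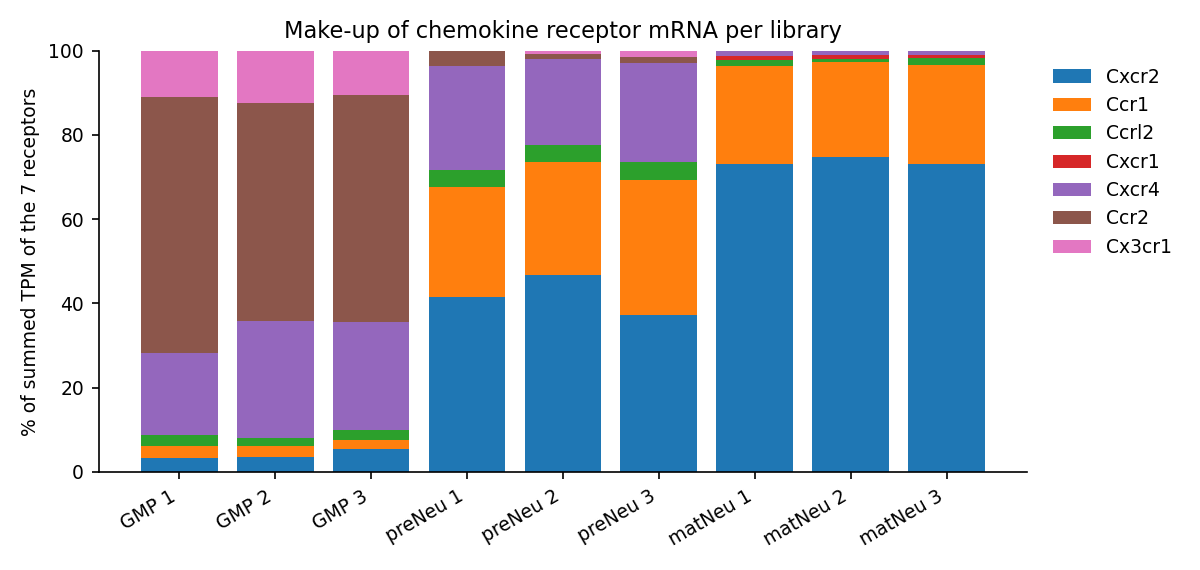
Share of each receptor in the summed TPM of the 7 members, 1 bar per library (percent). Ccr2 and Cxcr4 fill most of the GMP bars, Cxcr2, Ccr1 and Cxcr4 share the preNeu bars, and Cxcr2 with Ccr1 fill the matNeu bars.

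The 7 members held most of the chemokine receptor RNA. Their summed TPM ranged over 212 to 254 among GMP libraries, 156 to 199.9 among preNeu libraries and 4142 to 5439 among matNeu libraries, which was 92.4% to 94.9%, 87.4% to 91.1% and 99.2% to 99.4% of the TPM of 24 receptors. Of the other 17 receptors 7 passed the filter, of which Ccr10 did so solely through preNeu and Cxcr5 solely through matNeu. Of the other 5, 2 were higher in matNeu than in GMPs (Cxcr3, Ccr3). Cxcr3, a receptor of lymphocytes, averaged 0.818 TPM in GMPs and 12.9 TPM in matNeu (log2 difference 2.92, limma adjusted p = 8.84e-06). Cxcr5, the follicle-homing receptor of B cells, had 1.04, 7.96 and 5.03 TPM in matNeu and 0 in every GMP library. Of 6 lymphoid markers 4 were tested, of which 3 were higher and 1 lower in matNeu than in GMPs. The B-cell genes Cd79a and Ms4a1 were at most 0.603 TPM in GMPs and averaged 22.7 and 11.9 TPM in matNeu. Nkg7, a gene of natural killer cells that made up nearly all of the list's 458 to 610 TPM in GMPs, was lower, and the T-cell genes Cd3e and Cd3g reached 1.22 TPM at most. The part of B cells in Cxcr3 and Cxcr5 was not tested. Ccr3, the eotaxin receptor, averaged 0.311, 4.83 and 3.25 TPM in GMP, preNeu and matNeu, and was higher in matNeu than in GMPs (1.69, limma adjusted p = 0.00167). Of 5 eosinophil markers Prg3 passed solely through GMPs, and the other 4 were lower in preNeu than in GMPs. In matNeu against GMP 2 of these 4 were lower and 0 higher, and in matNeu against preNeu 2 were lower and 1 higher. The sum of all 5 spanned 899.8 to 1156 TPM over GMP libraries, 36.4 to 42.8 over preNeu libraries and 33.9 to 51.3 over matNeu libraries. Siglecf averaged 45.3, 19.5 and 41.7 TPM in GMP, preNeu and matNeu and made up most of the matNeu sum. Epx, an eosinophil granule peroxidase, was at 0 in every matNeu library. The part of eosinophils in Ccr3 was not tested.

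Ligand genes were called lower or not called at the first step and mostly higher at the last. Of 16 chemokine ligand genes 6 passed the filter. Without Cxcl2, 0 of 5 were higher and 3 lower (Ccl3, Ccl6, Ccl9) in preNeu than in GMPs, where 14.7% and 44.3% of all tested genes were. Under median-of-ratios scaling 1 of the 6 was lower there. In matNeu 4 were higher than in preNeu (background 22.9%), Ccl3, Ccl6 and Ccl9 among them. Against GMPs 3 of 5 were higher (22.8%) and 1 lower (54.1%) in matNeu, with a median log2 difference of 3.46 (all tested genes -0.92). Ccl6, a CC chemokine of myeloid cells, averaged 15.3, 9.29 and 6291 TPM in GMP, preNeu and matNeu (log2 difference 8.59 for matNeu against GMP, limma adjusted p = 1.73e-11). Cxcl2, a ligand of CXCR2 itself, was at most 0.454 TPM outside matNeu and 186.5, 206.4 and 418 TPM there, and like Cxcr1 it passed the filter solely through matNeu, so its level is a description. Ccl3, a ligand of CCR1, averaged 4.96, 0.852 and 69.6 TPM (3.64, limma adjusted p = 9.11e-05). Ccl9, the ligand gene that was lower, averaged 265 TPM in GMPs, 4.31 in preNeu and 32.4 in matNeu (limma adjusted p = 1.18e-07 for matNeu against GMP). Cxcl12, the ligand of CXCR4, reached 1.99 TPM at most and did not pass the filter.

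Signal carriers downstream of the receptors were higher in matNeu than in GMPs for 11 of 15 genes and lower for 2 (median log2 difference 1.25, all tested genes -0.92). Fgr, a Src-family kinase of myeloid cells, averaged 0.804, 243 and 803 TPM (8.80, limma adjusted p = 1.39e-11). Pik3r5, a subunit of the G protein-driven PI3 kinase gamma, averaged 14.8, 46.4 and 166 TPM (3.40, limma adjusted p = 1.82e-08). The 2 that were lower, Gnb1 (-0.76) and Plcb2 (-0.41), had positive differences under median-of-ratios scaling (0.12 and 0.46), so their direction depends on it. Of 11 genes that switch receptors off, Grk5 passed the filter solely through matNeu, and 8 of the other 10 were higher and 1 lower in matNeu than in GMPs (median 1.40). Rgs2, which speeds G protein inactivation, averaged 58.9, 76.0 and 670 TPM (3.47, limma adjusted p = 3.22e-09). Arrb2, the beta-arrestin that uncouples receptors, averaged 37.5, 354 and 349 TPM (3.21, limma adjusted p = 1.26e-08). Rgs14, another inhibitor of G protein signals, averaged 26.7, 127 and 253 TPM (3.20, limma adjusted p = 2.1e-09). Grk3, a receptor kinase, was the 1 that fell, averaging 28.4, 9.31 and 0.455 TPM (-4.36, limma adjusted p = 5.94e-08).

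For each member, the tested genes outside these lists whose centred log2(TPM + 1) values lay closest over the 9 libraries were found by root mean square (RMS) difference. Cxcr2 was closest to Gm14548 (RMS 0.342) and Cd101 (0.361), and Ccr1 to Nlrp12 (0.274) and Klra17 (0.327). Cxcr4 was closest to Hexdc (0.0725) and Fam50a (0.0931), and Cxcr1 to Slc7a11 (0.194) and Ifit1 (0.26). Ccr2 was closest to Gcsh (0.264) and Ppic (0.289), Cx3cr1 to P3h1 (0.248) and Mndal (0.267), and Ccrl2 to Snai1 (0.198) and Slc6a6 (0.323). These are descriptions of 9 libraries in 3 clusters.

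CHD4 occupied 6 of the 7 genes within 10 kb of their GENCODE span in WT GMPs, Cxcr1 being the exception, where 32.4% of all 21938 protein-coding genes had such a peak. In Gfi1-/- GMPs a CHD4 peak was listed at 2 of the 7, Ccr1 and Ccr2, where 10.2% of all genes had one. The whole Gfi1-/- list was far shorter, with 7316 peaks over 2.24 Mb against 35790 peaks over 15.07 Mb in WT. A site without a Gfi1-/- peak is therefore the usual case over the whole list and not particular to these genes. The WT list held 35 peaks at the members: 10 at Ccr1, 8 at Ccr2, 8 at Cx3cr1, 6 at Ccrl2, 2 at Cxcr4 and 1 at Cxcr2. Ccr1 and Ccr2 were the most densely covered, CHD4 peaks taking up 23.8% and 16.2% of their windows. With 1 library per genotype there is no test, and a peak absent from the Gfi1-/- list can have fallen below the caller's threshold.

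The sequences around the CHD4 summits are shown for 5 of the 7 sites that also had a peak in Gfi1-/- GMPs and for the strongest WT site of each other member. Each run is 101 bases centred on the WT summit (GRCm38, read 5′ to 3′ on the strand of the gene), and capitals mark a match to a core motif of PU.1 (AGGAAGT), C/EBP (TTGCNNAA) or RUNX (TGTGGT), factors of the myeloid lineage, or of GFI1 (AAATCA), on either strand. First come the Ccr1 sites at 14.95 kb and 3.67 kb downstream of the start and 7.14 kb upstream, then the Ccr2 sites at its promoter and at 10.76 kb. Of the remaining pair, the Ccr1 promoter site lies within the promoter run given further on, and the Ccr2 site at 1.53 kb, in an untranslated stretch, is not printed.
Ccr1 downstream, chr9:123953691-123953791, minus strand: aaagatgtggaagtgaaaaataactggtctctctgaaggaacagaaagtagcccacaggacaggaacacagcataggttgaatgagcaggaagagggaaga
Ccr1 intron, chr9:123964971-123965071, minus strand: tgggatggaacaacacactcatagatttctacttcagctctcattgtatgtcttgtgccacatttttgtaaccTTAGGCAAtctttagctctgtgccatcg
Ccr1 upstream, chr9:123975787-123975887, minus strand: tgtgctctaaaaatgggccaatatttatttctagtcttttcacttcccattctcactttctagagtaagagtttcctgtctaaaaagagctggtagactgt
Ccr2 promoter, chr9:124101846-124101946, plus strand: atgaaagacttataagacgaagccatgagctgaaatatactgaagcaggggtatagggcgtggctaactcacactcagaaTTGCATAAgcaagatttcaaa
Ccr2 intron, chr9:124112664-124112764, plus strand: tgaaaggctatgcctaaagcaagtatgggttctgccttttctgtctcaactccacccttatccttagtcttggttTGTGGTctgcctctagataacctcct
The next runs are the strongest WT sites of the members without a peak in Gfi1-/- GMPs.
Ccrl2 downstream, chr9:111046357-111046457, minus strand: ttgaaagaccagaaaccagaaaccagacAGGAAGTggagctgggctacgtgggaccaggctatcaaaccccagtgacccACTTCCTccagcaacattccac
Cx3cr1 intron, chr9:120043343-120043443, minus strand: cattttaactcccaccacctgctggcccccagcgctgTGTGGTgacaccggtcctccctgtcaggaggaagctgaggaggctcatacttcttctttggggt
Cxcr4 upstream, chr1:128597357-128597457, minus strand: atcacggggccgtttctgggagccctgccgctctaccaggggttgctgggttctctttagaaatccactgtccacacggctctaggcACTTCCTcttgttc
Cxcr2 upstream, chr1:74151208-74151308, plus strand: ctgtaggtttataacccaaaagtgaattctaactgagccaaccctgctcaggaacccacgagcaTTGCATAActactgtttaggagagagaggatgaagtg

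Of the 35 windows at members, 7 held the PU.1 letters, 6 the RUNX, 3 the C/EBP and 1 the GFI1 letters, against 16.2%, 13.9%, 9.7% and 5.6% of the 35728 windows at WT CHD4 summits of the whole list. The 1 GFI1 match was at the Ccr2 site 1.53 kb past the start. Such short matches are descriptions and not evidence of binding. The 250 bases before the start of the 2 genes with the steepest rise to matNeu, taken from RefSeq (GRCm38.p6) with the same capitals, follow.
Cxcr2 promoter, chr1:74153744-74153993, plus strand: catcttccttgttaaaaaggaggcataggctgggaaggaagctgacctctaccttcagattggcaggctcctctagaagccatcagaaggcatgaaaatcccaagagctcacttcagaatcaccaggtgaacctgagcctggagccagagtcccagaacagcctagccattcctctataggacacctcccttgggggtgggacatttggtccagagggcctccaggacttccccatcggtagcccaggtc
Ccr1 promoter, chr9:123968693-123968942, minus strand: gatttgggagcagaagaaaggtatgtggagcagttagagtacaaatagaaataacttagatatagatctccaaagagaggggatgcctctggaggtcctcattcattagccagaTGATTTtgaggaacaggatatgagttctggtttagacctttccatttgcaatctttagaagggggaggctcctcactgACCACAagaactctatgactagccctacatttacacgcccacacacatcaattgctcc
The Ccr1 run held 1 GFI1 match and 1 RUNX match, and its last 101 bases are the summit window of the CHD4 peak at the promoter. The Cxcr2 run held no match to any of the 4 motifs. Of 32851 promoters of this length, 12.4% held the GFI1 letters and 14.0% the RUNX letters.

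The strongest CHD4 site of the members was the Ccr1 site 14.95 kb downstream (chr9:123953107-123954289, intergenic), with a fold enrichment over background of 64.4 in WT, above 99.77% of all WT peaks. Its Gfi1-/- peak had a fold of 20.8. The intronic site (chr9:123964508-123965304) had 34.4 in WT and 5.72 in Gfi1-/-, the promoter site (chr9:123968235-123968956) 13.5 and 4.56, and the upstream site, 2.57 kb from Ccr1l1 (chr9:123975480-123976060), 19.2 and 6.90. The other 6 WT peaks at Ccr1 had no Gfi1-/- peak, among them an intronic one with a fold of 20.3 (chr9:123965723-123966910). How the 2 libraries were scaled to each other is not given in the sources used here, so the folds stand side by side only.

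Ccr2 kept 3 of 8 sites. They were the promoter (chr9:124101597-124102603, fold 28.7 in WT and 6.66 in Gfi1-/-), an untranslated stretch 1.53 kb past the start (chr9:124102682-124104109, 41.0 and 6.49), and a site 10.76 kb past it (chr9:124112060-124113074), where a WT peak of 39.8 met 2 Gfi1-/- peaks of 3.38 and 10.95. The last site is intronic in the GENCODE model and lies past the shorter RefSeq model. The other 5 WT peaks at Ccr2 had no Gfi1-/- peak.

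**Figure D4:**
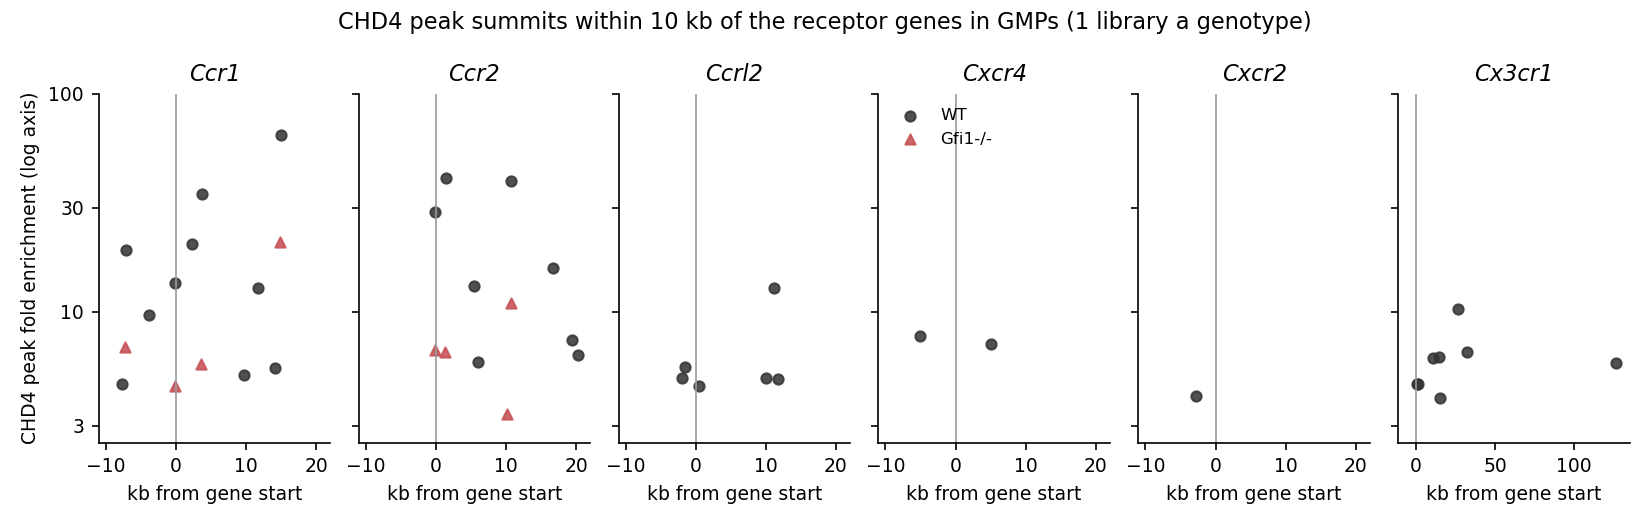
CHD4 peaks by distance from the transcription start (kb, in the direction of transcription) and fold enrichment (vertical log axis), for the 6 members with a peak, in WT and Gfi1-/- GMPs. Gfi1-/- peaks appear at Ccr1 and Ccr2, within stronger WT peaks.

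At the other 4 members with CHD4, the strongest WT peaks were weaker and none had a Gfi1-/- peak. Ccrl2 reached 12.8 at a site 11.11 kb downstream (chr9:111046188-111046616), with 3 promoter peaks of 4.57 to 5.59. Cx3cr1 reached 10.2 in an intron (chr9:120043115-120043640), Cxcr4 reached 7.72 upstream (chr1:128597259-128597539), and the 1 peak at Cxcr2 (chr1:74151213-74151397) had 4.11, above 3.46% of all WT peaks. In the 10% classes of WT fold that held these 4 strongest peaks, 20.7%, 8.63%, 2.21% and 3.91% of all WT peaks had a Gfi1-/- peak. Cxcr2, the member with the highest RNA level in matNeu, had the lowest top CHD4 fold of the 6 in GMPs. Ccr1, the next highest in matNeu RNA, had the highest (64.4).

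In all, 7 of the 35 WT peaks (20.0%) were overlapped by a Gfi1-/- peak, where 18.5% of all WT peaks were. The kept 7 had a median fold of 34.4 and the other 28 of 5.98. Of the 35, 5 were among the strongest 10% of all WT peaks by fold and all 5 were kept, as were 92.9% of that class in the whole list. Of the 17 other receptor genes, 12 had a WT peak and 7 a Gfi1-/- peak. Ccr1l1 shares peaks with Ccr1.

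H3K4me2 lists differ in reach, so cover was read with that in view: the peaks span 49.8 Mb in GMPs, 97.9 Mb in preNeu and 80.4 Mb in matNeu, with highest folds of 7.98, 120 and 65.3. Cxcr2 had 20.4%, 63.5% and 84.3% of its window (gene and 10 kb on each side) under H3K4me2 in GMP, preNeu and matNeu. With all lists trimmed to the GMP length by keeping the peaks of lowest q value, the order held at 20.4%, 44.4% and 59.7%. That kept all 37643 GMP peaks but 12177 in preNeu and 15133 in matNeu. Weak peaks thus count in GMPs alone, so a fall after GMPs at equal length can come from the cut. The peak over the Cxcr2 start was 3.5 kb wide in GMPs, 9.4 kb in preNeu and 16.3 kb in matNeu, the last spanning the whole gene (chr1:74147261-74163543). The mean protein-coding gene had 6.56%, 10.8% and 8.96%.

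Ccr1 too had more of the mark after GMPs. Its cover was 10.004%, 49.1% and 45.2%, and 10.004%, 26.7% and 35.9% at equal length. No H3K4me2 peak lay over its start in GMPs, where CHD4 did, but a peak of fold 2.45 began 126 bases past it and overlapped that CHD4 peak. Peaks of 7.1 kb (fold 11.9) and 9.5 kb (7.66) lay over the start in preNeu and matNeu. Ccr2 went the other way in the full lists, with 16.5%, 9.64% and 2.32%. At equal length it had 0% after GMPs, where weak peaks were cut, so those values do not show a fall. In GMPs its peak began just past the start (chr9:124102093-124106416, fold 3.38), and in preNeu a peak of fold 3.30 lay over it.

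Cxcr4 was marked at the start in every cell type, by peaks of 1.9 kb, 8.9 kb and 8.6 kb, with cover of 15.9%, 41.8% and 39.0%. At equal length these were 15.9%, 36.8% and 35.7%, wider after GMPs in both versions. Ccrl2 was also marked at the start throughout (21.8%, 42.7% and 23.4%), and at equal length its cover hardly moved (21.8%, 21.9% and 20.1%). Cx3cr1 had 15.3%, 25.9% and 18.1%, and 15.3%, 12.7% and 9.86% at equal length. Its GENCODE model spans 168.3 kb and takes in peaks of other genes, and over the RefSeq model the cover was 28.3%, 27.6% and 17.0%. Cxcr1 had 0.757%, 3.79% and 12.5%, and after trimming none in preNeu or matNeu; the peak over its start in matNeu was 292 bases long with a fold of 2.33.

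**Figure D5:**
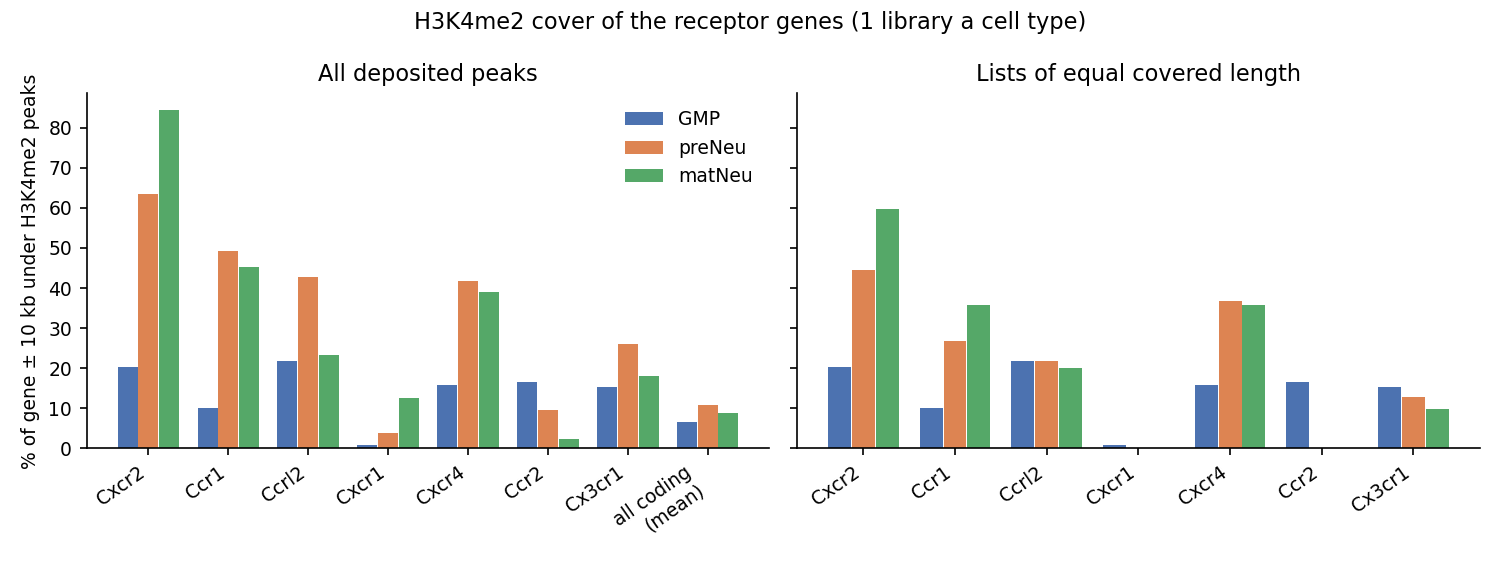
Percent of each member's window covered by H3K4me2 peaks in GMP, preNeu and matNeu (1 library each), for the deposited lists and for lists trimmed to equal covered length. Cxcr2 rises at both steps in both versions, Ccr2 falls in the full lists, and Ccrl2 is level once the lists are trimmed. Trimming cut weak peaks of preNeu and matNeu but none of GMPs.

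A peak lay over the start of 4 of 7 members in GMPs (Cxcr2, Cxcr4, Ccrl2, Cx3cr1), where 49.7% of protein-coding genes had one. In preNeu it was 5 of 7 (Cxcr2, Cxcr4, Ccr1, Ccr2, Ccrl2; background 55.2%) and in matNeu 5 of 7 (Cxcr2, Cxcr4, Cxcr1, Ccr1, Ccrl2; 52.8%). With RefSeq starts, Cx3cr1 was covered in all 3 cell types and Cxcr1 in none. The members' shares lay close to the backgrounds, with 7 genes.

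CHD4 sites of GMPs at the members were set beside the H3K4me2 peaks of each cell type. H3K4me2 peaks overlapped 19 of the 35 in GMPs (54.3%, all WT peaks 37.8%), 25 in preNeu (71.4%, 59.5%) and 23 in matNeu (65.7%, 52.5%). The genes differed: at Ccr1 the count was 3, 5 and 6 of 10, at Ccr2 4, 3 and 3 of 8, at Cxcr4 0, 2 and 2 of 2, and at Ccrl2 6, 6 and 4 of 6. ATAC-seq peaks, from 1 list deposited under both preNeu and matNeu so that its stage is unsettled, lay within 10 kb of 4 of 7 members (Cxcr2, Cxcr4, Ccr1, Cx3cr1; background 52.9%) and over the starts of Cxcr2, Cxcr4 and Ccr1. They overlapped 3 of the 35 CHD4 sites (8.6%, all WT peaks 10.1%). The sites of one gene share a locus and a library, so these counts are descriptions.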

How the data were processed

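The authors deposited TPM values per gene for 9 RNA-seq libraries and peak lists with fold enrichment over background (a ratio), -log10 q values and scores. The submitters' notes name FastQC 0.11.5, MultiQC 1.6, Trimmomatic 0.36, BWA 0.7.17, MACS2 2.1.0, kallisto 0.44.0 and mm10; the tool that made the TPM values is not stated. TPM keeps no depth, so no count test was run and no floor or interval of counting error can be given. Values were tested as log2(TPM + 1) with limma 3.58.1 (R 4.3.3, trend, all 9 libraries, two-sided, Benjamini-Hochberg over the 13061 genes that reached 1 TPM in 3 or more libraries, threshold 0.05), after checking the script on simulated data. An exact permutation test of 3 against 3 cannot go below p = 0.1. Peaks were assigned within 10 kb of GENCODE M21 genes, and an overlap of 1 base counted. A site was placed as promoter from 2 kb before to 500 bases after a start. GFI1 and H3K4me3 lists held peaks past the ends of GRCm38 chromosomes and on chromosomes that the mouse lacks (1534 and 1330 peaks). They were not used here. Some genes of the fixed lists are not reported here.

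Members and gene lists were chosen with earlier results of these data known. All members were named; from other lists, genes called with the largest change between matNeu and GMP, at most 3 each way, and for each member the 2 genes of least RMS difference. Alternatives covered the pseudocount, filter, scaling, each library left out, a replicate block, window, peak threshold and overlap.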

Additional observations from a re-analysis of the deposited data

How the results depend on the processing

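Scaling decided the direction of Cxcr4: under median-of-ratios scaling its log2 difference was 0.11 for preNeu against GMP and 0.69 for matNeu against GMP, where TPM gave -0.39 and -0.18. No other member's change turned its direction under the alternatives run. Member counts in this section include Cxcr1, which had to differ in matNeu, so they show how stable the calls were and nothing about the members. In the main fit 3, 4 and 5 of 5 members were called, where 7706, 8197 and 10041 of the 13061 tested genes were. Leaving out 1 library left 3 members called in preNeu against GMP, 3 to 4 in matNeu against preNeu and 4 to 5 in matNeu against GMP. The lower values came with any matNeu library left out, because Cxcr1 then failed the filter. Over all genes the counts were 6504 to 7859, 7451 to 8154 and 9198 to 10021. With a replicate block 3, 4 and 5 members were called and 7652, 8142 and 10032 genes; replicate numbers do not pair these libraries, since deviations of libraries of the same number correlated at -0.0394 to 0.123, with 1 of 9 over 0.1. A window of 20 kb gave 59 WT CHD4 peaks with 16 kept, against 35 and 7. Pooled H3K4me2 cover in GMPs fell from 14.9% to 3.98% at a -log10 q of at least 5; at equal covered length it was 16.6% in preNeu and 16.8% in matNeu, against 29.97% and 25.4%. RefSeq gene spans, added after seeing the data, gave 31 peaks with 7 kept and cover of 17.7%, 34.2% and 31.6%. ChIP-seq had 1 library per condition, so peak differences carry no replicate error.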
